A study of Homo sapiens with 6 samples.

Results

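Semaphorins and their receptors, the plexins and neuropilins, were described in MCF12A, an immortalized line of human mammary epithelium, with and without over-expressed miR-424. The gene set was fixed by name and holds 20 semaphorins, 9 plexins and 2 neuropilins. All 31 genes had a row of their own among the 24294 loci of the deposited table. Of these, 17 reached the minimum for testing, a mean of 1 FPKM (fragments mapped per length of transcript and per library size) over all libraries, and 14 did not. Both groups were stable MCF12A lines, 1 carrying an empty vector (EV) and 1 over-expressing miR-424, each grown in triplicate for 48 hours without any other treatment named. The 6 libraries were made from mRNA. Whether the 3 cultures of a group came from separately derived lines is not stated, and the p-values therefore cover no more than the spread between cultures, possibly technical. The source is labelled as breast cancer cells.

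Semaphorins are secreted or membrane-bound signalling proteins first known for guiding axons, and they also steer cell migration, adhesion and vessel growth. Plexins are their main receptors and act on small GTPases of the Ras and Rap families through a cytoplasmic GAP domain. Neuropilins are co-receptors that most secreted class 3 semaphorins need to reach A-type plexins, and they also bind vascular endothelial growth factors. In mammary epithelium and carcinoma the family is known for effects on branching, invasion and growth of vessels.

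The over-expressed microRNA is printed here with its seed, bases 2 to 8 from the 5' end, in capitals. The sequence is from RefSeq (GRCh38.p14), where the mature arm lies at chrX:134546680-134546701 on the minus strand. The reverse complement of the seed, TGCTGCT, was searched on the transcript strand in the longest annotated 3' untranslated region (UTR) of each gene (GENCODE 29, GRCh38). Of the 17 tested members 6 held at least 1 match (35.3%), against 25.4% of 10699 tested loci with an annotated 3' UTR of at least 30 bases. PLXNA2 had 3 matches, PLXNA1 had 2, and PLXNB1, PLXND1, NRP2 and SEMA4B had 1 each. Each match is printed with 11 bases on either side and the seed match in capitals, since these are the members whose values bear on it. Which 3' UTR isoform the cells used was not measured, and a match is a run of letters and not a shown site of binding.
hsa-miR-424-5p: cAGCAGCAauucauguuuugaa
PLXNA2, 3' UTR base 302, chr1:208026924-208026952, minus strand: gcctctgtgacTGCTGCTttgcatgaaaa
PLXNA2, 3' UTR base 3200, chr1:208024026-208024054, minus strand: cagctggccccTGCTGCTgcctcccgtcc
PLXNA2, 3' UTR base 3708, chr1:208023518-208023546, minus strand: tgcacttcaccTGCTGCTtgagcttctga
PLXNB1, 3' UTR base 436, chr3:48404033-48404061, minus strand: tctggccttgtTGCTGCTgccacatccta
NRP2, 3' UTR base 1420, chr2:205777935-205777963, plus strand: gatgtaaccatTGCTGCTcatgtgtcttc
PLXNA1, 3' UTR base 1916, chr3:127035922-127035950, plus strand: ctggggccttcTGCTGCTgccacacccag
PLXNA1, 3' UTR base 2772, chr3:127036778-127036806, plus strand: cccacctggcgTGCTGCTgccgccacttg
PLXND1, 3' UTR base 24, chr3:129556271-129556299, minus strand: gttggtcaggcTGCTGCTgggagaaatgg
SEMA4B, 3' UTR base 142, chr15:90228774-90228802, plus strand: gccagctggccTGCTGCTctccagtcaag

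The locus that hosts MIR424 read 0.989 to 1.27 FPKM in EV libraries and 107, 106 and 224 FPKM in miR-424 replicates 1, 2 and 3, in the direction of the labels and highest in replicate 3. That library also stood apart over all loci. Its median absolute log2 difference from miR-424 replicates 1 and 2 was 0.142 and 0.152 per locus, against 0.0408 between replicates 1 and 2, and its median deviation from the EV mean was -0.113. Deviations also followed the GC content of the transcript. Under 40% GC the median deviation of replicates 1, 2 and 3 was 0.070, 0.089 and -0.220, and over 60% GC it was -0.091, -0.120 and -0.050. Results are therefore given with and without replicate 3 and with the GC trend removed, and the cause of the trend was not tested. Of 12 mammary epithelial markers 9 reached 1 FPKM and 3 did not, with a summed 388 to 402 FPKM in EV and 365 to 386 FPKM in miR-424 libraries. KRT5 was lower and KRT14 higher in miR-424 cells. The other 3 markers of this list were near 0 in both groups: E-cadherin (CDH1) at 0.0113 to 0.0387 FPKM, TP63 at 0.0961 to 0.192 and KRT19 at 0.0421 to 0.163. These 3 levels are low for the epithelial line named in the labels. Of the same list KRT8, KRT18, ITGA6, EGFR and EPCAM had means of 162, 86.5, 36.0, 31.3 and 2.72 FPKM over all libraries. Those of KRT5, KRT17, LAMB3 and KRT14 were 52.2, 7.52, 3.77 and 3.31 FPKM. KRT8 and KRT18 share their listed coordinates, so reads of the pair may not be separated. The markers thus did not all point the same way, and the identity of the line was not tested further. Of 6 endothelial markers 0 reached 1 FPKM, with a summed 0.348 to 0.421 and 0.276 to 0.372 FPKM. Of 6 markers each, 1 leukocyte, 2 fibroblast and 3 neuronal or glial genes reached 1 FPKM. The fibroblast marker DCN had a mean of 125 FPKM and did not pass, COL1A1 rose from 39.0 ± 1.49 to 45.2 ± 1.66 FPKM, and the glial marker MBP fell from 1.28 ± 0.03 to 0.814 ± 0.02 FPKM (SD, n = 3; limma, adjusted p = 0.0456 and 0.00817 for the latter pair). The summed FPKM of the 3 lists in EV and miR-424 libraries was 28.7 to 30.6 and 26.1 to 28.4, 156 to 166 and 164 to 185, and 5.52 to 5.73 and 5.43 to 6.36; the glial marker S100B was listed at 0 throughout. The part of these cell types in the results was not tested.

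Few members made up most of the family's transcripts. The secreted ligand SEMA3C had the highest mean, 92.7 FPKM, above 93.7% of tested loci. The plexins PLXNB2 and PLXNA1 followed at 42.8 and 39.2 FPKM, then the co-receptor NRP1 at 28.98 FPKM. The ranges of PLXNB2 and PLXNA1 overlapped over the 6 libraries (40.3 to 46.4 and 36.3 to 44.1 FPKM), as did those of PLXND1 and SEMA3B at a mean of 14.4 FPKM each. SEMA4C (9.48 FPKM), NRP2 (7.90), SEMA4B (7.80), PLXNB1 (7.496) and SEMA7A (7.18) formed the next tier by mean FPKM, with overlapping ranges among the last 4. Below them came SEMA3F (5.75), PLXNA3 (5.12), PLXNA2 (3.30), SEMA4F (2.04), SEMA4D (1.80) and PLXNB3 (1.57 FPKM).

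**Figure D1:**
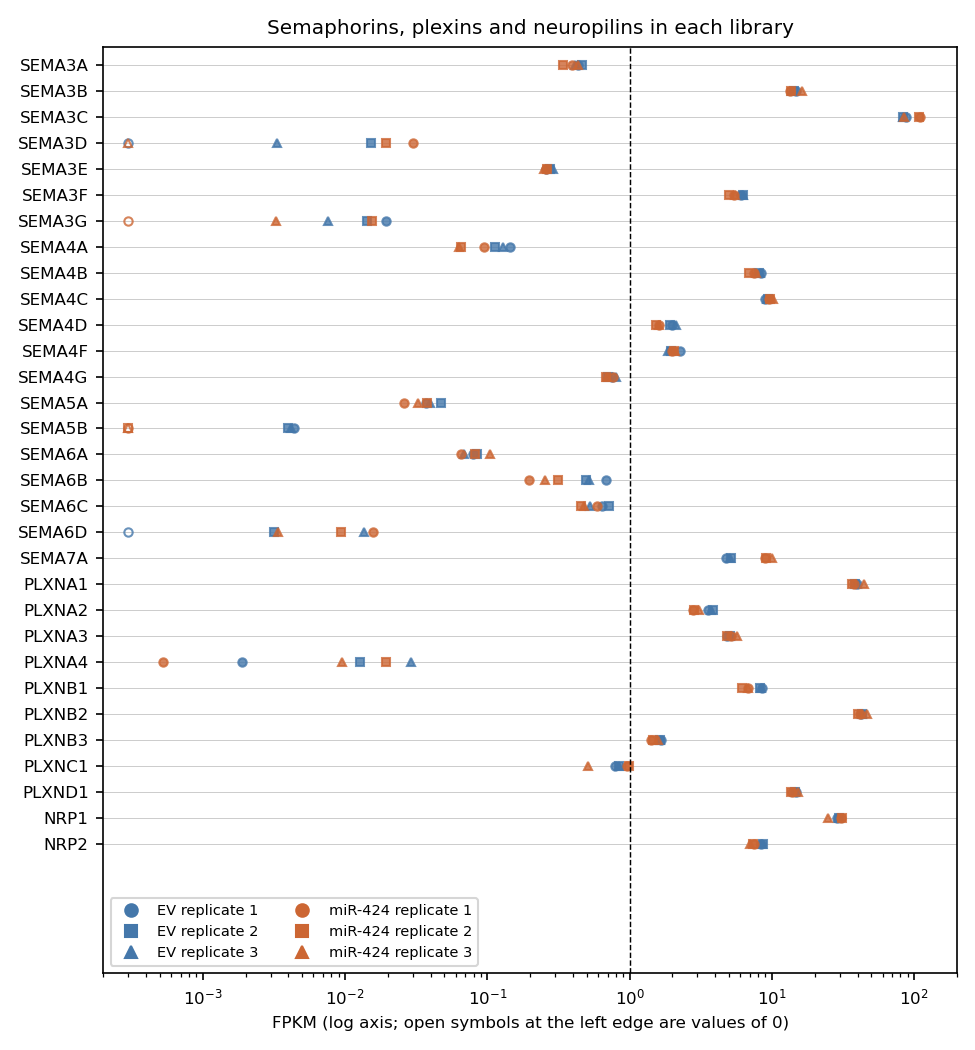
FPKM of all 31 members in each of the 6 libraries on a log axis, with colour for the group and symbol for the replicate number; the dashed line is the minimum mean of 1 FPKM used for testing. SEMA3C lies farthest to the right and 14 members have means to the left of the line, among them all members of SEMA5 and SEMA6.

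Members under the minimum were listed from a mean of 0.00208 FPKM for SEMA5B to 0.823 FPKM for PLXNC1, a receptor of SEMA7A. Class 3 semaphorins on chromosome 7 differed widely although SEMA3E, SEMA3A and SEMA3D lie within a few megabases of SEMA3C: their means were 0.267, 0.413 and 0.0114 FPKM. Among the 14, SEMA6B, a transmembrane ligand of A-type plexins, read 0.679, 0.492 and 0.519 FPKM in EV replicates 1, 2 and 3 and 0.195, 0.315 and 0.255 FPKM in miR-424 replicates 1, 2 and 3. The groups did not overlap. Without a filter on low values its log2 change was -0.32 (limma, Benjamini-Hochberg adjusted p = 0.0393), in a fit where 3.87% of loci were falls and 0.786% rises. The other 13 had adjusted p of at least 0.0782 in that fit, from SEMA4A, and SEMA5B, at 0.00397 to 0.00435 FPKM in EV libraries, was listed at 0 in every miR-424 library. SEMA4G shares its listed coordinates with MRPL43, at a mean of 41.1 FPKM, so reads of the pair may not be separated.

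Of the 17 tested members, 1 rose, the membrane-anchored ligand SEMA7A, and 4 fell: the ligand SEMA4D, the plexins PLXNB1 and PLXNA2, and the co-receptor NRP2 (limma on log2(FPKM + 1), Benjamini-Hochberg adjusted over 11574 loci). Rises made up 1.24% and falls 6.32% of all tested loci, against 5.9% and 23.5% of these members. At an unadjusted p under 0.05 there were 8 of the 17, and 23.6% of all tested loci. Libraries of the groups did not overlap for 2 members above EV and 7 below it; over all tested loci this held for 6.59% and 26.9%. The median log2 change was -0.03 over the members and -0.05 over all tested loci. With median-of-ratios scaling these medians were 0.03 and 0.00, and with the GC trend removed 0.06 and 0.00. Without miR-424 replicate 3 they were -0.08 and -0.02, with the members below all loci. The sign of the members' median thus depends on the scaling, and its order beside all loci on that library. In whole cultures, fewer cells expressing a gene and less RNA per cell cannot be told apart.

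SEMA7A is a GPI-anchored semaphorin that signals through beta-1 integrins and PLXNC1. Its locus lies at chr15:74701629-74726299 (hg19). EV replicates 1, 2 and 3 read 4.78, 5.17 and 5.09 FPKM, and miR-424 replicates 1, 2 and 3 read 8.88, 9.16 and 10.0 FPKM. All miR-424 libraries lay above all EV libraries, and replicate 3 was the highest. SEMA7A has a transcript GC content of 60.9%. Over 60% GC the median deviation of all loci was also highest in replicate 3 (-0.050, against -0.091 and -0.120 in replicates 1 and 2). The mean of SEMA7A went from 5.01 ± 0.21 to 9.36 ± 0.60 FPKM (SD, n = 3 each), a ratio of 1.87. The log2 change was 0.78 ± 0.06 (SE; adjusted p = 0.0019, limma with Benjamini-Hochberg), and it was 0.74 without miR-424 replicate 3 and 0.87 with the GC trend removed. The rise passed in all 17 alternative settings, with adjusted p of 1.79e-05 to 0.0225. Its 3' UTR of 1335 bases held 0 matches to the miR-424 seed. SEMA7A made up 3.5% to 3.9% of summed semaphorin FPKM in EV libraries and 5.6% to 7.1% in miR-424 libraries.

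SEMA4D, a transmembrane ligand of PLXNB1, lay at chr9:91975705-92094611 (hg19). It read 2.001, 1.92 and 2.13 FPKM in EV replicates 1, 2 and 3 and 1.61, 1.53 and 1.61 FPKM in miR-424 replicates 1, 2 and 3. All miR-424 libraries were below all EV libraries. The mean fell from 2.02 ± 0.11 to 1.58 ± 0.04 FPKM (SD, n = 3), with a log2 change of -0.22 ± 0.05 (SE; adjusted p = 0.0370, limma with Benjamini-Hochberg). Its 3' UTR held 0 seed matches.

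PLXNB1, a receptor of SEMA4D, at chr3:48445260-48471460 (hg19), had the largest fall among tested members on the log2(FPKM + 1) scale. That order depends on the added 1, since the ratio of miR-424 to EV means was 0.791, against 0.781 for PLXNA2 and 0.786 for SEMA4D. PLXNB1 read 8.45, 8.25 and 8.41 FPKM in EV replicates 1, 2 and 3 and 6.82, 6.20 and 6.84 FPKM in miR-424 replicates 1, 2 and 3. The groups were well apart. The mean fell from 8.37 ± 0.11 to 6.62 ± 0.37 FPKM (SD, n = 3), and the log2 change was -0.30 ± 0.05 (SE; adjusted p = 0.0176, limma with Benjamini-Hochberg). Both SEMA4D and PLXNB1 were thus lower in each miR-424 library than in any EV library, as were 26.9% of all tested loci.

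PLXNA2, a receptor of class 3 and class 6 semaphorins, at chr1:208195587-208417665 (hg19), read 3.54, 3.83 and 3.75 FPKM in EV replicates 1, 2 and 3. In miR-424 replicates 1, 2 and 3 it read 2.78, 2.82 and 3.09 FPKM, all below EV. The mean fell from 3.71 ± 0.15 to 2.90 ± 0.17 FPKM (SD, n = 3), with a log2 change of -0.27 ± 0.05 (SE; adjusted p = 0.0278, limma with Benjamini-Hochberg). With 3 seed matches in 5001 bases of 3' UTR it held more matches than any other of the 31 members.

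NRP2, the co-receptor with a preference for SEMA3F and for VEGF-C, at chr2:206547223-206662857 (hg19), read 8.44, 8.60 and 8.46 FPKM in EV replicates 1, 2 and 3. It read 7.44, 7.41 and 7.02 FPKM in miR-424 replicates 1, 2 and 3, without overlap. The mean fell from 8.50 ± 0.09 to 7.29 ± 0.24 FPKM (SD, n = 3), and the log2 change was -0.20 ± 0.04 (SE; adjusted p = 0.0384, limma with Benjamini-Hochberg).

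These 4 falls were small and close to the threshold. Their direction was the same in each alternative that could be run, but median-of-ratios scaling gave adjusted p of 0.0793, 0.0566, 0.0878 and 0.0564 for SEMA4D, PLXNB1, PLXNA2 and NRP2 (limma, Benjamini-Hochberg), with 2.66% of all loci as rises and 4.28% as falls. Leaving out EV replicate 1, 2 or 3, or miR-424 replicate 1, ended all 4 calls, and leaving out miR-424 replicate 2 ended all but that of PLXNB1, with 0 or 1 falls remaining. Over all loci, falls then made up 0.665%, 0.683% and 0.726% when EV replicate 1, 2 or 3 was dropped, and 2.42% and 3.15% when it was miR-424 replicate 1 or 2. Rises, SEMA7A among them, made up 0.294%, 0.268%, 0.302%, 0.544% and 0.717% in the same order. Without miR-424 replicate 3 all 4 passed, with log2 changes of -0.23, -0.32, -0.31 and -0.17 (limma, Benjamini-Hochberg adjusted p = 0.0117, 0.00171, 0.00213 and 0.00429); 22.2% of all tested loci were then falls and 14.9% rises. With the GC trend removed PLXNB1, PLXNA2 and NRP2 passed with log2 changes of -0.21, -0.21 and -0.14, and SEMA4D did not (limma, Benjamini-Hochberg adjusted p = 0.0517), against 7.51% falls over all loci; without replicate 3 as well all 4 passed, against 15.3%.

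**Figure D2:**
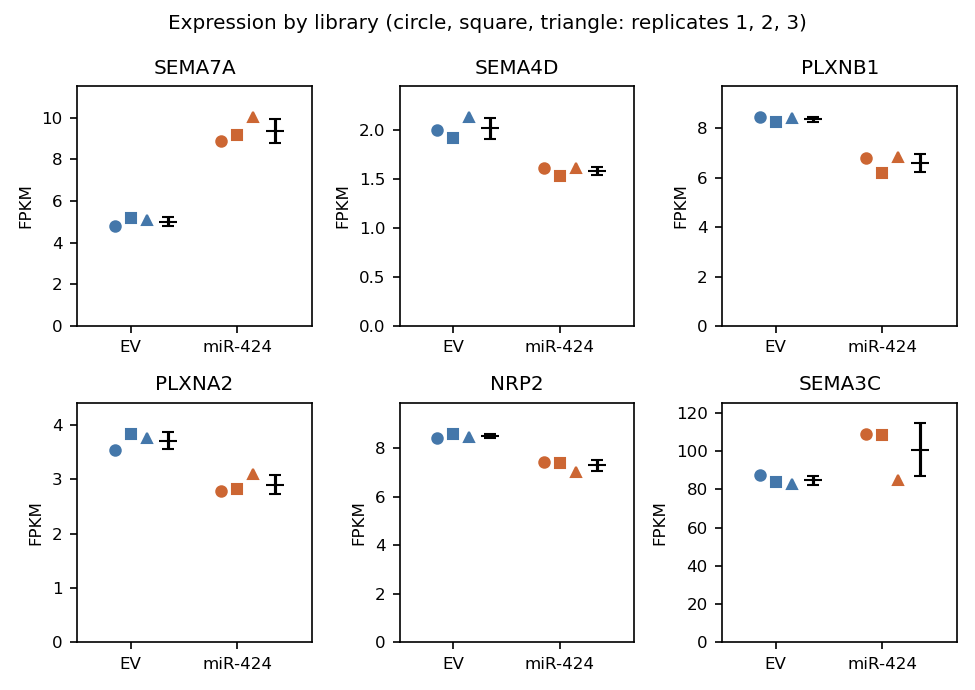
FPKM by library for the 5 members that passed the test and for SEMA3C, on axes that start at 0; black bars are the mean and SD of 3 libraries. SEMA7A lies higher and SEMA4D, PLXNB1, PLXNA2 and NRP2 lie lower in all miR-424 libraries, while SEMA3C in miR-424 replicate 3 lies among the EV libraries.

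SEMA3C, the most abundant member, did not pass, and its miR-424 libraries lay far apart. This ligand signals through both neuropilins with PLXND1 or A-type plexins. EV replicates 1, 2 and 3 read 87.4, 83.8 and 83.0 FPKM, and the first pair of miR-424 libraries read 109 and 108 FPKM. Replicate 3 read 84.7 FPKM, within the EV range. The log2 change was 0.24 ± 0.10 (SE; adjusted p = 0.205, limma with Benjamini-Hochberg). SEMA3C has a transcript GC content of 39.3%, in the range where replicate 3 was lowest over all loci. With the GC trend removed its log2 change was 0.26 (limma, Benjamini-Hochberg adjusted p = 0.00741), where 6.04% of tested loci were rises. With the trend removed and without replicate 3 it was 0.30 (limma, Benjamini-Hochberg adjusted p = 0.000314), where 14.6% of tested loci were rises. Summed semaphorin FPKM was 132 to 138 in EV libraries, and 160, 159 and 140 for miR-424 replicates 1, 2 and 3. Without SEMA3C these sums were 49.4 to 50.2, 50.6, 50.3 and 55.6 FPKM.

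The other class 3 ligands tested were SEMA3F and SEMA3B, neighbours on chromosome 3 known as inhibitors of tumour growth and vessels. SEMA3F, which signals mainly through NRP2, was at 6.07, 6.31 and 6.22 FPKM in EV replicates 1, 2 and 3 and 5.38, 4.99 and 5.51 FPKM in miR-424 replicates 1, 2 and 3. The groups did not overlap, yet the log2 change of -0.20 ± 0.05 missed the threshold (SE; adjusted p = 0.0584, limma with Benjamini-Hochberg). It passed without miR-424 replicate 3 (-0.22, adjusted p = 0.00576, limma) and was -0.10 with the GC trend removed. SEMA3B was at 14.3 ± 0.50 and 14.4 ± 1.57 FPKM (SD, n = 3), with miR-424 replicate 3 highest at 16.2 FPKM. The 95% interval of its log2 change was -0.18 to 0.18.

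The remaining class 4 ligands that were tested, which are membrane-bound and act mainly on B-type plexins, moved little. SEMA4C, the ligand of PLXNB2, read 8.95, 9.37 and 9.22 FPKM in EV replicates 1, 2 and 3 and 9.52, 9.67 and 10.1 FPKM in miR-424 replicates 1, 2 and 3. Each miR-424 library was above each EV library, with a log2 change of 0.08 ± 0.04 that did not pass (SE; adjusted p = 0.318, limma with Benjamini-Hochberg). With the GC trend removed it was 0.16 and passed (limma, Benjamini-Hochberg adjusted p = 0.0267), where 6.04% of tested loci were rises. Without miR-424 replicate 3 it was 0.06 and missed the threshold (limma, adjusted p = 0.184). With both changes together it was 0.15 and passed (limma, adjusted p = 0.0161), where 14.6% of tested loci were rises. SEMA4B went from 8.23 ± 0.09 to 7.38 ± 0.42 FPKM (SD, n = 3; log2 change -0.14, limma, Benjamini-Hochberg adjusted p = 0.146), without overlap. Without miR-424 replicate 3 its log2 change was -0.17 and passed (limma, Benjamini-Hochberg adjusted p = 0.0108), where 22.2% of tested loci were falls. With the GC trend removed it was -0.06 and missed the threshold (limma, adjusted p = 0.315). The same held when replicate 3 was left out as well (-0.08, limma, adjusted p = 0.119). SEMA4F was at 2.03 ± 0.20 and 2.04 ± 0.04 FPKM (SD, n = 3), with a 95% interval of -0.13 to 0.14 for the log2 change.

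The most abundant plexins had no detectable difference. PLXNB2, the receptor of SEMA4C, read 42.5, 42.9 and 42.9 FPKM in EV replicates 1, 2 and 3 and 41.7, 40.3 and 46.4 FPKM in miR-424 replicates 1, 2 and 3. The EV libraries fell inside the miR-424 range, and the 95% interval of the log2 change was -0.14 to 0.13. PLXNA1, a main partner of neuropilins, read 39.5, 38.2 and 39.7 FPKM in EV replicates 1, 2 and 3 and 37.7, 36.3 and 44.1 FPKM in miR-424 replicates 1, 2 and 3, with an interval of -0.17 to 0.18. It holds 2 seed matches in 3375 bases of 3' UTR. PLXND1, the receptor of SEMA3E and a partner for SEMA3C, read 14.8, 14.5 and 14.5 FPKM in EV replicates 1, 2 and 3. In miR-424 replicates 1, 2 and 3 it read 13.9, 13.7 and 15.2 FPKM, which overlapped, with an interval of -0.14 to 0.09. For all 3 genes, miR-424 replicates 1 and 2 lay below the EV libraries and replicate 3 above them, and their transcript GC content was 61.6% to 63.5%. PLXNA3 (5.00 ± 0.11 to 5.24 ± 0.39 FPKM, SD, n = 3) and PLXNB3 (1.65 ± 0.01 to 1.49 ± 0.09 FPKM) did not pass either (limma, Benjamini-Hochberg adjusted p = 0.630 and 0.301).

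NRP1, a co-receptor for class 3 semaphorins and VEGF-A, made up 77.2% to 80.7% of the summed neuropilin FPKM over the 6 libraries. It read 28.6, 29.8 and 29.1 FPKM in EV replicates 1, 2 and 3, and 30.5, 31.05 and 24.8 FPKM in miR-424 replicates 1, 2 and 3. Replicates 1 and 2 lay above EV and replicate 3 below it. The log2 change was -0.03 ± 0.08 (SE; adjusted p = 0.899, limma with Benjamini-Hochberg), with a 95% interval of -0.23 to 0.18. The sign was positive without miR-424 replicate 3 (0.07, limma, Benjamini-Hochberg adjusted p = 0.0567). PLXNC1, the plexin receptor of SEMA7A, showed the same split under the minimum for testing, at 0.791, 0.846 and 0.845 FPKM in EV replicates 1, 2 and 3 and 0.955, 0.991 and 0.510 FPKM in miR-424 replicates 1, 2 and 3.

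**Figure D3:**
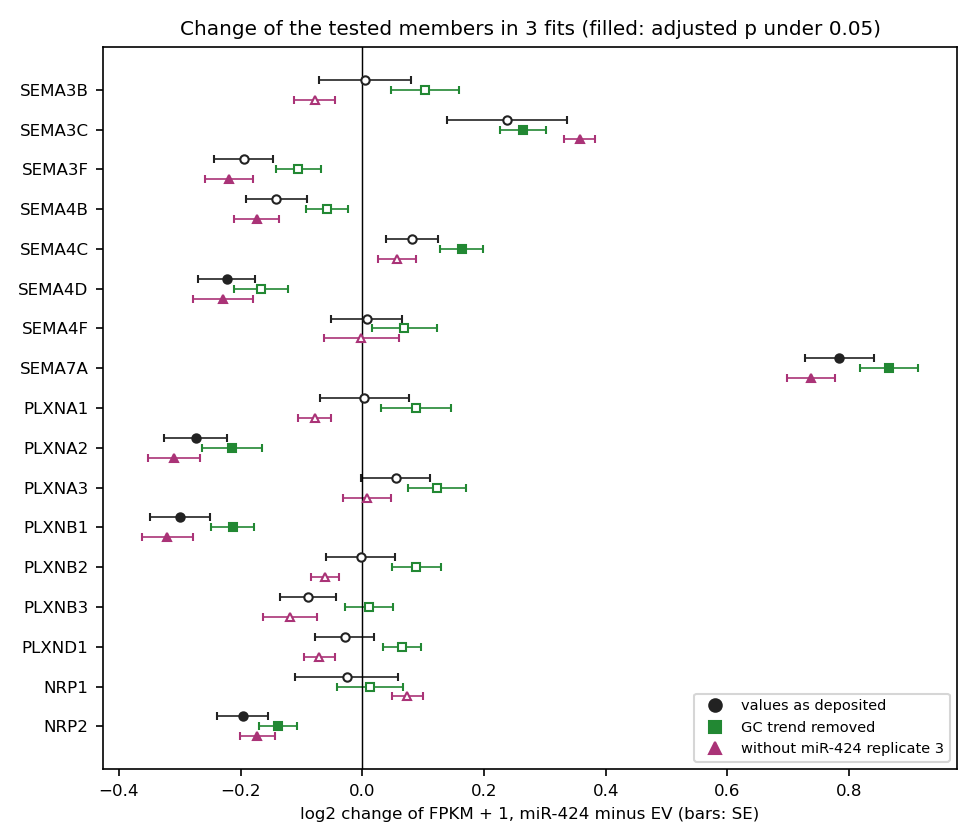
Log2 change of the 17 tested members, miR-424 minus EV, with SE bars, from the values as deposited, with the GC trend removed and without miR-424 replicate 3; filled symbols have an adjusted p under 0.05. SEMA7A stands at 0.74 to 0.87 in these fits, PLXNB1, PLXNA2 and NRP2 are filled in each, and SEMA3C is filled in the latter 2.

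Transcript GC content of the members was set beside their deviations from EV. Of the 17 tested members only SEMA3C lies under 40% transcript GC, NRP1 lies at 47.0% and the rest lie between 52.9% and 65.0%. SEMA3B deviated from the EV mean by -0.09, -0.07 and 0.17 on the log2 scale in miR-424 replicates 1, 2 and 3. PLXNA3 deviated by 0.04, -0.03 and 0.15, so its replicates 1 and 3 had the same sign. PLXNB1 was at -0.26, -0.38 and -0.26 and SEMA7A at 0.72, 0.76 and 0.88 in replicates 1, 2 and 3, so each had 1 direction in all 3 libraries.

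**Figure D4:**
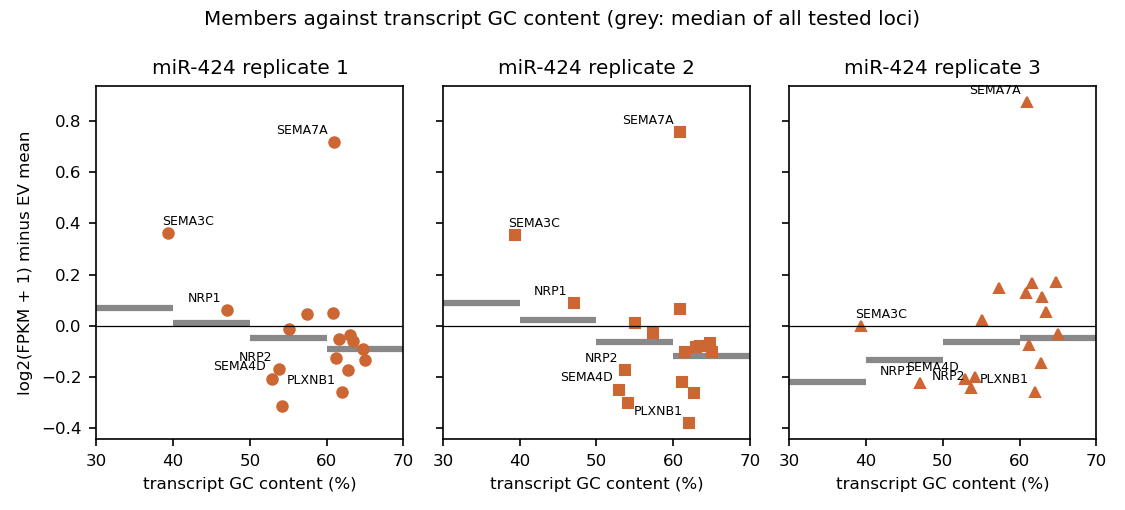
Deviation of each tested member from the EV mean, on the log2(FPKM + 1) scale, against the GC content of its transcripts in percent, with 1 panel for each miR-424 library; grey bars are medians of all tested loci in 4 ranges of GC. The grey bars fall from left to right in replicates 1 and 2 and rise in replicate 3, and SEMA7A lies far above them in every panel.

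Seed matches were set beside these changes as a description. Among the 6 tested members with a match, PLXNA2, PLXNB1 and NRP2 fell and PLXNA1, PLXND1 and SEMA4B did not pass. Among the 11 without a match, SEMA4D fell, SEMA7A rose and 9 did not pass. Over all tested loci with a 3' UTR of at least 30 bases, 37.1% of 699 falls and 18.8% of 138 rises held a match. Their median 3' UTR lengths were 1027 and 1850.5 bases.

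Genes that work with semaphorin receptors were counted from a list of 76. Of these 59 were tested, and 4 rose and 10 fell (6.8% and 16.9%, against 1.24% and 6.32% of all loci). Their median log2 change was -0.06. With the GC trend removed 11 rose and 10 fell (18.6% and 16.9%, against 6.04% and 7.51% of all loci). Without miR-424 replicate 3 there were 13 rises and 13 falls (22.0% each, against 14.9% and 22.2%), so the share of falls was that of all loci. Leaving out EV replicate 1, 2 or 3 gave 0 rises and 0 falls, where 0.268% to 0.302% of all loci were rises and 0.665% to 0.726% falls. Without either miR-424 replicate 1 or 2 there were 2 rises and 7 falls (3.4% and 11.9%), against 0.544% and 2.42% of all loci in the former fit and 0.717% and 3.15% in the latter.

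By subgroup the counts are small, and shares are to be read beside 1.24% rises and 6.32% falls over all loci. Of 8 tested co-receptors and other receptors, 3 fell and 0 rose (37.5% and 0%). NRCAM and L1CAM, adhesion molecules that associate with neuropilins, fell from 16.8 ± 0.20 to 11.8 ± 1.35 FPKM and from 6.16 ± 0.03 to 4.70 ± 0.13 FPKM (SD, n = 3), with limma Benjamini-Hochberg adjusted p = 0.0170 and 0.00781. ERBB2, a kinase that associates with B-type plexins, fell by 0.25 on the log2 scale. ITGB1, the integrin subunit that binds SEMA7A, had the highest mean of this subgroup and read 330, 325 and 318 FPKM in EV replicates 1, 2 and 3. In miR-424 replicates 1, 2 and 3 it read 363, 364 and 308 FPKM, and it missed the threshold (limma, adjusted p = 0.538) unless miR-424 replicate 3 was left out or given low weight. Among 6 tested growth factors that bind neuropilins, VEGFA rose (16.7%) and PGF and TGFB1 fell (33.3%). VEGFA, a ligand of NRP1, read 23.3, 22.0 and 21.7 FPKM in EV replicates 1, 2 and 3 and 33.6, 34.8 and 29.7 FPKM in miR-424 replicates 1, 2 and 3. Its groups were well apart, with a log2 change of 0.53 ± 0.07 (SE; adjusted p = 0.00817, limma with Benjamini-Hochberg). PGF went from 3.59 ± 0.12 to 2.67 ± 0.23 FPKM and TGFB1 from 31.3 ± 0.44 to 23.1 ± 1.58 FPKM (SD, n = 3). VEGFD shares a merged locus with PIR, so its value is not its own.

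Of 22 tested GTPases, their regulators and actin kinases LIMK2 alone passed, a share of falls (4.5%) under that of all loci (6.32%). This kinase of cofilin fell from 17.2 ± 0.31 to 14.0 ± 0.29 FPKM (SD, n = 3; limma, Benjamini-Hochberg adjusted p = 0.0102). Cofilin itself (CFL1), with the highest mean of this subgroup, was at 443.2 ± 12.3 and 432.5 ± 17.4 FPKM and did not pass. Among 17 tested cytoplasmic effectors, MICAL2, an actin-oxidizing enzyme, rose from 17.6 ± 0.27 to 20.5 ± 0.96 FPKM, and PTK2B, MICALL1 and CDK5R1 fell (5.9% rises and 17.6% falls). On the log2 scale the kinase PTK2B had the largest of these falls, from 3.50 ± 0.14 to 2.43 ± 0.19 FPKM (SD, n = 3). GIPC1, which binds the tail of NRP1, had the highest mean of the effectors and did not pass (log2 change -0.12, limma, Benjamini-Hochberg adjusted p = 0.200). Among 6 tested proteases 2 rose and 1 fell (33.3% and 16.7%). FURIN, which cleaves class 3 semaphorins, fell from 19.3 ± 0.40 to 15.7 ± 0.36 FPKM (SD, n = 3). ADAMTS1 rose from 26.2 ± 0.45 to 32.7 ± 0.56 FPKM and MMP14, which can shed SEMA4D, from 123 ± 0.98 to 140 ± 5.41 FPKM (SD, n = 3). The calls of VEGFA, ADAMTS1, L1CAM, NRCAM, TGFB1, LIMK2, FURIN and PTK2B each ended without EV replicate 1, 2 or 3 and held in the other alternatives in which they were tested. The other 6 calls were lost more often: ERBB2 passed in 11 of 17 alternatives, PGF in 10 of 16, MICAL2 and MICALL1 in 9 of 17, CDK5R1 in 9 of 16 and MMP14 in 8 of 17, with the direction kept in each. MMP14 and MICAL2 missed the threshold with median-of-ratios scaling (limma, adjusted p = 0.0672 and 0.0584), with quantile normalization (0.0531 and 0.0598) and without miR-424 replicate 1 (0.107 and 0.109) or 2 (0.0638 and 0.0619).

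**Figure D5:**
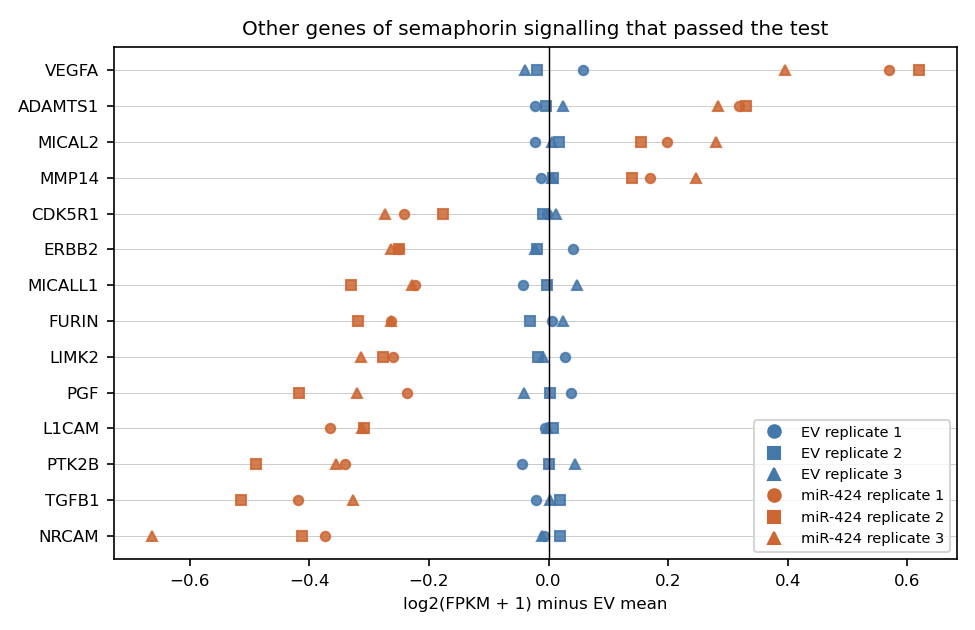
Deviation from the EV mean, on the log2(FPKM + 1) scale, of the 14 other genes of semaphorin signalling that passed the test, in each of the 6 libraries. All miR-424 libraries lie to the right of EV for VEGFA, ADAMTS1, MICAL2 and MMP14 and to the left for the other 10 genes.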

How the data were processed

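The authors deposited 1 table of FPKM values with a column for each of the 6 libraries and hg19 locus positions. The submitters' processing notes list hg19, GRCh37, Cuffdiff, Cufflinks 1.3.0 and TopHat 1.4.1, without role or order. The sources used here do not give the scaling of libraries, the use of strand or the number of reads. Small steps in low values did not give whole fragments (3.7% to 11.5% of low loci within 0.03 log2 of the commonest step), so depth is unknown and no count test was used. Groups came from sample titles. Tests covered the 11574 loci averaging 1 FPKM or more, on log2(FPKM + 1) with limma 3.58.1 in R 4.3.3 (trended prior, two-sided, Benjamini-Hochberg, threshold 0.05). This scale understates changes of low genes. An exact permutation test of 3 against 3 cannot go below p = 0.1. Alternatives numbered 17, of which the 2 with transcript GC content, available for 98.6% of tested loci, were added after seeing the data. In fits that left out a library, the minimum FPKM, the median-of-ratios scaling and the GC correction were still computed on all 6 libraries. The members and lists were chosen with earlier results of these data known. All members are named; pathway genes past the threshold, up to 10 in each direction, and the most abundant of each subgroup are named. The test was checked on simulated data with independent noise at each locus. These held no shift shared by loci of 1 library and no GC trend. The check therefore cannot tell how such features of miR-424 replicate 3 affect the calls.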

Additional observations from a re-analysis of the deposited data

How the results depend on the processing

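Libraries, and the scaling between them, decided most counts. Rises and falls over all loci, members and pathway genes are given in that order. Median-of-ratios scaling gave 308 and 495, 1 and 0, and 5 and 9, and quantile normalization 319 and 447, 1 and 0, and 3 and 7. As shares of all loci these were 2.66% and 4.28% in the former fit and 2.76% and 3.86% in the latter. Array weights gave 1256 and 2307, 2 and 6, and 12 and 14, with a weight of 0.078 for miR-424 replicate 3. Under these weights 10.9% of all loci were rises and 19.9% falls, against 20.3% and 23.7% of tested pathway genes. Median-of-ratios scaling without miR-424 replicate 3 gave 2211 and 2203, 3 and 6, and 14 and 12, with NRP1 at 0.0936 and past the threshold as a rise (adjusted p = 0.028, limma; the 17 alternatives span 0.028 to 0.977). With that scaling and without replicate 3, 19.1% of all loci were rises and 19.0% falls. Removing the GC trend gave 689 and 857 (6.04% and 7.51% of all loci), 3 and 3, and 11 and 10. Removing it without miR-424 replicate 3 gave 1662 and 1745 (14.6% and 15.3%), 3 and 4, and 14 and 10. At a minimum of 5 FPKM, 468 loci fell (5.64%) and 2 members of 13 tested fell. Without a filter 2 members of 31 fell, PLXNB1 and SEMA6B, against 3.87% of all loci. Leaving out 1 library gave 31 to 1728 rises and 77 to 2574 falls over all loci, 1 to 2 and 0 to 6 for the members and 0 to 13 and 0 to 13 for the pathway genes; the high ends are those without miR-424 replicate 3. The cause was not tested, beyond the loss of 1 library in 6.

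A fit with the replicate number as a replicate block gave 79 rises and 270 falls over all loci (0.683% and 2.33%). It gave 1 and 0 for the members (SEMA7A, adjusted p = 0.0135, limma) and 2 and 6 for the pathway genes (3.4% and 10.2%). The labels give the number no meaning across groups, and the main fit did not take the numbers as pairs. Deviations of same-numbered libraries correlated at 0.051, 0.152 and 0.127 across loci. Each miR-424 library correlated best with the EV library of its number, while EV replicate 1 correlated slightly better with miR-424 replicate 2 (0.061). Whether the numbers mark pairs is therefore not known, and in the block fit no fall among the members passed.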
